A study of Sus scrofa with 24 samples.

Results

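Peripheral blood mononuclear cells of pigs given a resveratrol-enriched grape extract on top of an atherogenic diet (AD-GE-RES, 4 animals) were set against those of pigs given that diet alone (AD, 4 animals). The groups were taken from the diet labels, and they make up 8 of the 24 arrays of the series. AD-GE-RES animals ate for 4 months an atherogenic diet holding 5.5% tallow from beef, 10% oil from coconut and 1% cholic acid, to which the extract was added at 1 g per 70 kg of body weight, carrying 18 mg of resveratrol for the same weight. AD animals ate the atherogenic diet for the same 4 months without the extract. Each group held 2 females and 2 males, numbered 1 to 4 below with the females as 1 and 2. Neither age, breed nor starting weight of the pigs is given in the sources used here. The same extract was also given with standard chow (CT-GE-RES, 4 animals), which has its own control on chow alone (CT, 4 animals). Grape extract at 1 g per 70 kg without added resveratrol (AD-GE, 4 animals) was given with the atherogenic diet. So was resveratrol at 18 mg per 70 kg without the extract (AD-RES, 4 animals). All 6 groups held 2 females and 2 males and were fed for 4 months. Their 24 arrays were fitted together. Values are log2 of the deposited intensity of an Affymetrix porcine probe set, differences are AD-GE-RES minus AD on that log2 scale, and errors are SD for groups of 4 and SE for fitted differences.

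Mononuclear cells of blood, the labelled cell type here, are the T, B and natural killer lymphocytes and the monocytes that float on a density gradient, while neutrophils and red cells sediment. Monocytes take up modified lipoprotein in the artery wall and become foam cells, which is why blood cells are read out in diet-induced atherosclerosis. Resveratrol is a stilbene of grape skin that is studied for action on sirtuin deacetylases, on the energy sensor AMPK, on the antioxidant factor NRF2 and on inflammatory signalling through NF-kB. Grape extracts hold other polyphenols as well.

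Genes of the labelled cells were among the probe sets left after the filter on low values: 16 T cell, 10 B cell, 10 cytotoxic and 24 monocyte markers, with median mean levels of 9.03, 8.75, 8.63 and 8.66. So were genes of other blood cells, with medians of 6.20 for 10 neutrophil, 8.09 for 13 platelet and 7.27 for 11 erythroid markers. Levels of different probe sets cannot be set against each other and no detection call was used, so these values do not measure how many cells of each type were present. Array AD-GE-RES 1 stood apart in its group: its mean correlation with the other 3 arrays was 0.964, against 0.971 to 0.975 for the others. The 3'/5' ratio of 3 control transcripts, a log2 measure that is higher where the 5' ends of transcripts are less well covered, was 3.40 and 4.08 in AD-GE-RES females and 1.67 and 1.62 in AD-GE-RES males. In AD animals it was 2.95 and 1.37 in females and 1.51 and 2.93 in males. Over all 4 animals the ratio averaged 2.69 ± 1.24 on AD-GE-RES and 2.19 ± 0.87 on AD, and an exact two-sided permutation test of the difference gave p = 0.486 (smallest possible 0.0286). The difference of 0.507 was 0.0449 without AD-GE-RES 2 and 0.864 without AD-GE-RES 4. Within the AD-GE-RES group, however, both females lay above both males, so the ratio moved with sex there.

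No probe set passed adjusted p under 0.05 between AD-GE-RES and AD. The test was limma's, with Benjamini-Hochberg adjustment over 17999 probe sets, and the smallest adjusted p was 0.9995 (0% called). At an unadjusted p under 0.05, 207 probe sets were higher on AD-GE-RES (1.15%) and 225 were lower (1.25%), together 432 where 900 would be counted if no probe set differed. The 2 groups of 4 animals did not overlap, with AD-GE-RES higher, at 90 probe sets (0.500%), and with AD-GE-RES lower at 137 (0.761%). With median centring in place of the deposited scaling the split at unadjusted p under 0.05 was 303 higher and 145 lower. For 75.7% of probe sets the whole 95% interval stayed inside a 1.5-fold change either way, and for 94.7% inside a 2-fold change. These intervals are of the difference over both sexes and do not bound the difference within a sex. The genes named below are therefore those that stood highest in the order of p or of difference, and none of them is called.

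FKBP5, the co-chaperone that binds the glucocorticoid receptor and is itself induced by glucocorticoids, had the smallest p of the genes with a symbol, and it was lower on AD-GE-RES. Its intensity was 5.50, 4.56, 4.96 and 5.05 in AD-GE-RES animals 1 to 4, against 5.83, 5.98, 5.59 and 5.55 in AD animals 1 to 4. All 4 supplemented animals lay below all 4 AD animals, although AD-GE-RES 1 came close to the lowest AD animal. The difference was -0.72 ± 0.18, which is 1.64-fold lower (unadjusted p = 0.000724 by limma, adjusted p = 0.9995). A second, brighter FKBP5 probe set read 9.16, 8.59, 8.22 and 8.60 on AD-GE-RES and 9.78, 9.57, 8.65 and 9.55 on AD. Here the groups overlapped through AD 3, which was below AD-GE-RES 1, and the difference was -0.75 ± 0.23 (unadjusted p = 0.00401 by limma). Without AD-GE-RES 1 the differences of the 2 probe sets were -0.88 and -0.86.

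GLUL, the glutamine synthetase that glucocorticoids induce in many tissues, read 6.0, 5.88, 6.04 and 6.06 on AD-GE-RES, against 6.31, 6.51, 6.19 and 6.38 on AD. The groups did not overlap, and the difference was -0.35 ± 0.11. Its other 2 probe sets, both brighter, gave -0.34 and -0.22. CEBPD, a transcription factor of myeloid cells that acute-phase signals and glucocorticoids induce, read 10.71, 10.59, 10.40 and 10.41 on AD-GE-RES, against 11.01, 11.09, 10.76 and 10.76 on AD. These groups too did not overlap, and the difference was -0.37 ± 0.17; the 2 other CEBPD probe sets gave -0.86 and -0.14. In the list of 20 measured glucocorticoid response genes, which holds all 3, 15 were lower and 5 higher, with a median difference of -0.15. That median was -0.31 without AD-GE-RES 1 and -0.09 without AD-GE-RES 2. Each gene stands there with its brightest probe set. Of these 20, 2 (FKBP5 and CEBPD) were lower at unadjusted p under 0.05 and 0 were higher, against 0.796% lower and 0.961% higher among the 6033 genes with 1 probe set each. TSC22D3 and TXNIP, members named after their values were seen, differed by -0.03 and 0.01. ANXA1, the glucocorticoid-induced annexin, differed by -0.43 ± 0.26.

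Among the other genes lower on AD-GE-RES, CHMP5, a subunit of the ESCRT machinery that sorts membrane proteins in endosomes, read 8.22, 8.39, 7.88 and 8.29 on AD-GE-RES and 8.56, 8.82, 8.59 and 8.57 on AD. All AD-GE-RES animals lay below all AD animals, and the difference was -0.44 ± 0.15. SYT1, a synaptotagmin, read 3.64, 3.32, 3.30 and 3.14 on AD-GE-RES, against 4.04, 3.68, 4.02 and 3.82 on AD, near the lower limit of the levels tested. It did not overlap either, with a difference of -0.54 ± 0.14. The activin receptor ACVR1B (-0.62 ± 0.20), the carboxypeptidase CPD (-0.37 ± 0.11) and the Rab GTPase-activating protein TBC1D10A (-0.38 ± 0.13) were also among the 10 lower genes with the smallest p, each with overlapping groups. For CPD and TBC1D10A the other probe sets lay between -0.10 and 0.07. FAM104A (-0.39 ± 0.12) and ISOC1 (-0.37 ± 0.12) were among them at 1 dim probe set each, the first without overlap, while their brighter probe sets differed by 0.04 to 0.19. LFNG, the fringe enzyme that modifies Notch receptors and the third by p, differed by -0.49 ± 0.14 at 1 probe set but by -0.07 and -0.05 at its 2 brighter ones.

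The largest lower differences at unadjusted p under 0.05 belonged to DYNC1I1, a dynein intermediate chain, and to CHI3L1, a chitinase-like glycoprotein of macrophages and neutrophils. DYNC1I1 read 4.06, 7.08, 5.59 and 5.88 on AD-GE-RES, against 7.18, 7.48, 7.29 and 6.56 on AD. AD-GE-RES 1 was far below every other animal and AD-GE-RES 2 was above the lowest AD animal, so the difference of -1.48 ± 0.59 became -0.98 without AD-GE-RES 1. CHI3L1 read 7.96, 6.96, 7.15 and 6.17 on AD-GE-RES and 9.11, 7.96, 7.80 and 7.47 on AD, a difference of -1.03 ± 0.48 with overlap through AD-GE-RES 1. DDX58, the cytosolic RNA sensor RIG-I, the kinase PLK2 and the nuclease RNASET2 differed by -0.71, -0.69 and -0.65.

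On the higher side UPF3B, a factor of nonsense-mediated mRNA decay, led by p. Its probe set read 5.82, 6.21, 5.57 and 5.88 on AD-GE-RES, against 5.56, 5.29, 4.70 and 5.29 on AD. AD-GE-RES 3 and AD 1 were nearly level, though the groups did not overlap, and the difference was 0.66 ± 0.21 (1.58-fold; unadjusted p = 0.00572 by limma, adjusted p = 0.9995). Of 4 other UPF3B probe sets, 1 gave 0.56 and the rest lay between -0.16 and 0.16. MAPK9, which encodes the stress kinase JNK2, read 4.62, 4.87, 4.58 and 4.97 on AD-GE-RES, against 4.54, 4.39, 4.55 and 4.19 on AD. It was higher in every supplemented animal than in any AD animal, though AD-GE-RES 3 and AD 3 were nearly level. The group difference was 0.34 ± 0.12.

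TINF2, a subunit of the shelterin complex at telomeres, read 7.95, 8.02, 7.82 and 7.97 on AD-GE-RES and 7.71, 7.60, 7.73 and 7.78 on AD, apart by 0.23 ± 0.08. TIAL1, an RNA-binding protein of stress granules, read 5.43, 5.65, 5.51 and 5.74 on AD-GE-RES, against 5.28, 4.93, 5.36 and 5.36 on AD. Neither gene overlapped between groups, but a second TIAL1 probe set, at a much higher level, differed by only 0.08. ABCB1, the drug efflux pump P-glycoprotein, read 6.37, 6.37, 6.34 and 6.78 on AD-GE-RES, against 5.81, 5.40, 6.23 and 6.18 on AD. This group difference of 0.56 ± 0.21 without overlap had AD-GE-RES 4 well above its group. RBM19, MAOB, C8H4orf48, RNF170 and ALMS1 completed the 10 genes with the smallest p on this side, with differences from 0.31 to 0.40. Second probe sets of RBM19, C8H4orf48 and RNF170 ran the other way, at -0.15, -0.25 and -0.18.

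FBXO34, an F-box protein of ubiquitin ligases, had the largest higher difference at unadjusted p under 0.05. It read 5.61, 6.75, 5.28 and 6.16 on AD-GE-RES, against 5.24, 4.24, 4.77 and 5.72 on AD, and differed by 0.96 ± 0.40 with overlapping groups. LOC100522818, SPECC1L, MLLT3, UPF3B and TCEA1 followed with 0.91, 0.80, 0.76, 0.66 and 0.65. Brighter probe sets of MLLT3 gave 0.13 and of TCEA1 -0.20 and 0.07. Of the 31 probe sets named by smallest p or largest difference, 12 had groups that did not overlap, which the choice by p favours.

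**Figure D1:**
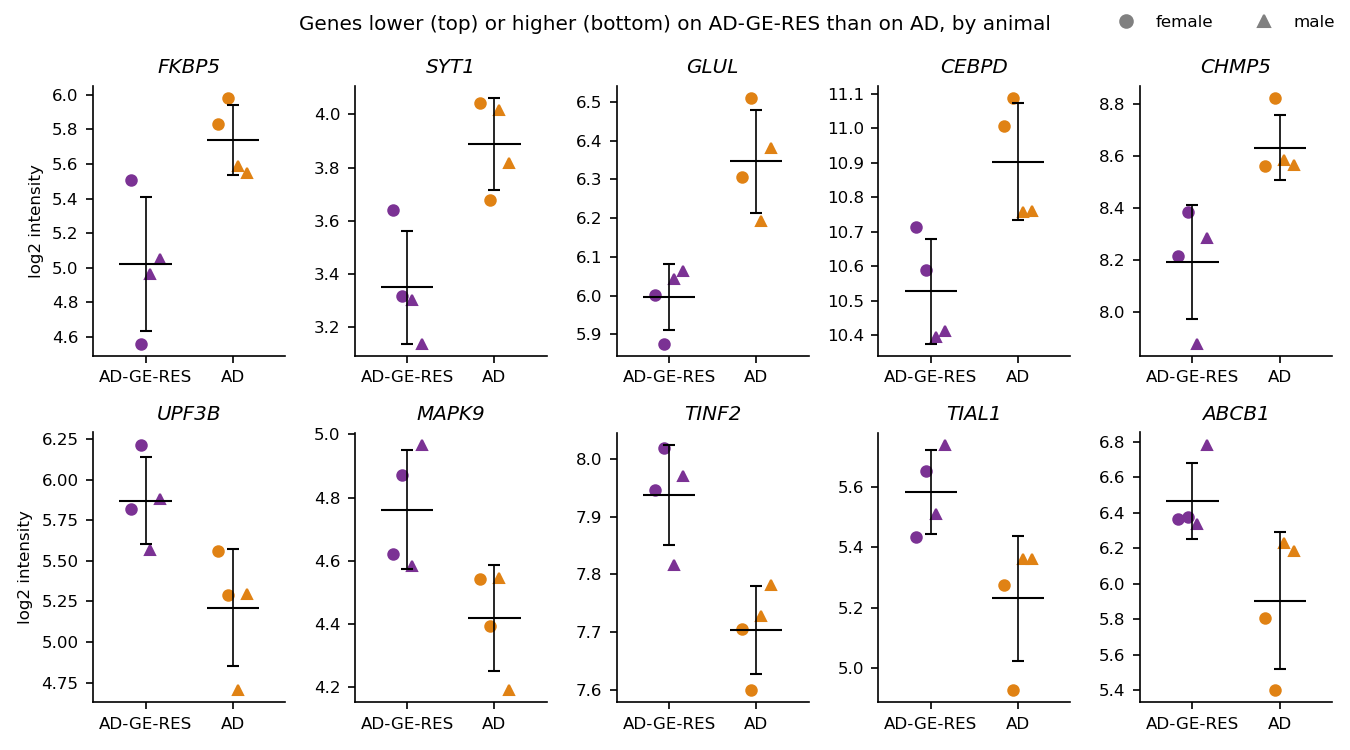
Log2 intensity of 10 genes in each animal, AD-GE-RES left and AD right in each panel, with females as circles and males as triangles; the line is the group mean and the bar the SD of 4 animals. The upper row holds genes lower on AD-GE-RES and the lower row genes higher. All 10 panels show probe sets whose groups do not overlap, so the lack of overlap reflects the choice of panels. Over all probe sets tested the groups did not overlap at 0.500% (higher) and 0.761% (lower). The brighter FKBP5 probe set overlapped, and other probe sets of UPF3B and TIAL1 differed less. No gene passed adjusted p under 0.05.

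Gene lists were described over 6033 genes with 1 probe set each. Over all of them 3401 were higher and 2632 lower on AD-GE-RES, with a median difference of 0.02. At an unadjusted p under 0.05, 58 were higher (0.961%) and 48 lower (0.796%), and the groups did not overlap at 33 with AD-GE-RES higher (0.547%) and 32 with it lower (0.530%). Of 30 lists with 9 to 60 measured genes, 16 had a median below 0 and 14 above it. Some genes stand in more than 1 list, so the lists are not separate readings. CEBPD is in the monocyte and glucocorticoid lists, and TLR2, TLR4 and CD14 are in the monocyte and Toll-like receptor lists. In blood samples, fewer cells of a type and less RNA per cell cannot be told apart.

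Interferon response genes had the lowest median of the 30 lists with all animals in, though not without AD 3 or without AD 4. These are antiviral genes switched on when interferon binds its receptor. Of 23 measured, 21 were lower on AD-GE-RES and 2 higher, and the median difference was -0.45. IFIT1, which binds foreign RNA, read 8.60, 7.90, 8.67 and 9.51 on AD-GE-RES, against 8.79, 9.45, 9.94 and 9.98 on AD. The groups overlapped because AD-GE-RES 4 lay above AD 1 and AD 2, and the difference was -0.87 ± 0.47. EIF2AK2, the kinase PKR, differed by -0.34 ± 0.16 and, with DDX58, was 1 of 2 members at unadjusted p under 0.05. MX1, a GTPase that traps viral nucleocapsids, and the exonuclease ISG20 were the 2 members whose groups did not overlap; both are named after their values were seen. MX1 read 9.99, 9.17, 9.87 and 9.36 on AD-GE-RES, against 10.02, 10.06, 10.30 and 10.51 on AD. AD-GE-RES 1 was nearly level with the lowest AD animal, and the difference was -0.62 ± 0.45. The mean of the list in each animal, relative to all 24 arrays, was 0.00, -0.43, -0.21 and -0.27 on AD-GE-RES and -0.04, 0.10, 0.28 and 0.52 on AD, so AD-GE-RES 1 and AD 1 overlapped. The list median lay between -0.63 and -0.33 when each of the 8 animals was left out in turn.

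Monocyte markers were lower for 23 of 24 genes, with a median of -0.27 and 1 gene, CEBPD, at unadjusted p under 0.05. CD14, the co-receptor for lipopolysaccharide, read 6.20, 4.87, 6.57 and 6.74 on AD-GE-RES and 5.57, 8.16, 7.64 and 5.63 on AD, a wide spread in both groups with overlap. S100A9, a calcium-binding alarmin of monocytes and neutrophils, read 11.65, 9.02, 9.56 and 9.20 on AD-GE-RES, against 11.48, 10.74, 9.88 and 10.98 on AD. AD-GE-RES 1 was the highest of all 8 animals for S100A9, and the difference of -0.91 ± 0.70 became -1.59 without it. The list mean was 0.61 in AD-GE-RES 1 but -0.23, -0.25 and -0.24 in AD-GE-RES 2, 3 and 4, against 0.24, 0.41, 0.16 and 0.28 in AD animals 1 to 4. All 3 other supplemented animals therefore lay below every AD animal, while AD-GE-RES 1 lay above them all; the list median was -0.53 without AD-GE-RES 1 and -0.10 without AD-GE-RES 3. Neutrophil markers, as genes of cells that a gradient should leave behind, were lower for 7 of 10 with a median of -0.35, which was -0.56 without AD 3 and -0.14 without AD 1. Their list mean ran from -0.34 to 0.30 on AD-GE-RES and from -0.29 to 0.98 on AD, and their part in the monocyte values was not tested.

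Inflammatory mediators were lower for 16 of 23 genes, with a median of -0.13. PTGS2, the inducible cyclooxygenase, read 5.50, 3.93, 3.59 and 3.71 on AD-GE-RES, against 5.23, 5.19, 5.26 and 4.63 on AD. AD-GE-RES 1 was the highest of the 8 animals and the other 3 supplemented animals were the lowest; the difference was -0.89 ± 0.44. CCL8, a chemokine for monocytes, read 7.23, 6.28, 7.22 and 6.47 on AD-GE-RES and 7.38, 7.89, 8.03 and 7.46 on AD, a difference of -0.89 ± 0.56. It was the only 1 of the 23 whose groups did not overlap. CXCL8, the neutrophil chemokine interleukin 8, read 8.97, 5.24, 5.67 and 7.23 on AD-GE-RES, against 6.16, 6.94, 8.99 and 8.76 on AD, and differed by -0.94 ± 0.91. The neutrophil chemokine AMCF-II (-0.28 ± 0.13) was the 1 member at unadjusted p under 0.05, while IL1B (-0.43 ± 0.55) and TNF (-0.13 ± 0.30) had differences smaller than their errors. TNFSF10, the death ligand TRAIL, ran the other way by 0.57 ± 0.41. The list median was -0.41 without AD-GE-RES 1 and -0.04 without AD-GE-RES 2.

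Immediate early genes, the transcription factors and phosphatases induced within the first minutes of stimulation, were lower for 19 of 25, with a median of -0.23, which was -0.39 without AD-GE-RES 1 and -0.06 without AD-GE-RES 2. EGR1 read 9.60, 8.89, 7.03 and 10.18 on AD-GE-RES, against 10.44, 10.36, 9.66 and 9.70 on AD. AD-GE-RES 3 was the lowest of the 8 and AD-GE-RES 4 the third highest, and the difference was -1.12 ± 0.62. SOCS3, the feedback inhibitor of cytokine receptors, was the 1 member at unadjusted p under 0.05, at -0.39 ± 0.16 and a level near the lower limit tested, and ATF3, a stress-induced repressor, by -0.59 ± 0.30. Toll-like receptor and inflammasome genes were lower for 11 of 15 with a median of -0.10, which was -0.32 without AD-GE-RES 1 and -0.09 without AD-GE-RES 2. MYD88, an adaptor of Toll-like receptors, differed by -0.29 ± 0.15 and CASP1, the protease that matures interleukin 1 beta, by -0.63 ± 0.33.

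Genes of the sirtuin, AMPK and NRF2 systems, which are studied as targets of resveratrol, came next. Of 35 listed sirtuin, AMPK and FOXO genes, 19 were measured, and SIRT1 was not among them. Of these 19, 13 were higher and 6 lower, with a median of 0.11. It was 0.05 without AD-GE-RES 1 and 0.13 without AD-GE-RES 4. PRKAA1, the catalytic subunit of AMPK, differed by 0.24 ± 0.17, its upstream kinase STK11 by 0.21 ± 0.14, SIRT6 by 0.20 ± 0.14 and SIRT2 by -0.12 ± 0.13. None of the 19 was at unadjusted p under 0.05. Of 45 listed NRF2 and antioxidant genes, 34 were measured, and NFE2L2, which encodes NRF2, was not among them. Of these 34, 22 were lower and 12 higher, with a median of -0.08. That median was -0.10 without AD-GE-RES 1 and -0.02 without AD 3. HMOX1, the haem oxygenase that NRF2 induces, read 9.38, 8.33, 7.93 and 8.02 on AD-GE-RES, against 8.62, 9.05, 8.61 and 9.08 on AD. AD-GE-RES 1 was again above every AD animal and the rest were below them all, with a difference of -0.42 ± 0.30. The mitochondrial superoxide dismutase SOD2 likewise had AD-GE-RES 1 above every AD animal and the other 3 below them all (11.39, 10.58, 10.59 and 10.46 on AD-GE-RES; 11.31, 11.10, 10.86 and 11.04 on AD). Glutathione reductase, GSR, differed by -0.24 ± 0.12 and NFKBIA, the inhibitor of NF-kB, by -0.08 ± 0.24.

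Lipid genes lay on both sides of 0. ABCA1, the transporter that loads cholesterol onto apolipoprotein A-I and a target of the sterol receptor LXR, read 7.44, 6.77, 6.25 and 7.24 on AD-GE-RES, against 6.84, 6.06, 5.47 and 6.78 on AD. The groups overlapped, and the difference was 0.64 ± 0.31, with an unadjusted p of 0.0542 by limma. Over all 18 measured efflux and LXR target genes 9 were higher and 9 lower, with a median of -0.01. Sterol synthesis and uptake genes were higher for 9 of 15 with a median of 0.01. Of 31 fatty acid uptake and oxidation genes, 20 were higher and 11 lower (median 0.05). ACAA2, a thiolase of mitochondrial beta-oxidation, was the 1 member at unadjusted p under 0.05, at 0.33 ± 0.13, and HADHB differed by 0.19 ± 0.10. UCP3, a mitochondrial carrier, differed by -0.24 ± 0.15 without overlap.

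T cell markers were even, with 8 of 16 higher and a median of 0.00, and LCK, the kinase of the T cell receptor, differed by 0.33 ± 0.17. Without AD-GE-RES 1, 13 of the 16 were higher and the median was 0.12, while it was -0.09 without AD-GE-RES 3. B cell markers had 7 of 10 higher (median 0.03), MHC class I genes 7 of 13 (0.00) and cytotoxic markers 3 of 10 (-0.03). Class II MHC genes, whose products present antigen on monocytes and B cells, were lower for 8 of 9 with a median of -0.21, which was -0.43 without AD 4 and -0.08 without AD 3. Platelet markers were lower for 7 of 13 (median -0.02) and erythroid markers for 8 of 11 (-0.17). The platelet median was -0.31 without AD-GE-RES 1, where 13 of 13 were lower, and 0.50 without AD 2. The erythroid median was -0.26 without AD 3 and 0.09 without AD 1. The machinery lists lay near the median of all genes: 60 cytosolic ribosomal proteins at 0.02, 56 subunits of oxidative phosphorylation at 0.05, 37 proteasome subunits at -0.02, and 31 unfolded protein and heat shock genes at 0.05. With 1 animal left out they ran from 0.005 to 0.020, from 0.025 to 0.079, from -0.066 to 0.051 and from 0.010 to 0.088 in that order. MAP kinases were higher for 14 of 20 with a median of 0.08 (0.04 without AD 2, 0.11 without AD-GE-RES 4), and 2 of them, MAPK9 and MAP2K2 (0.32 ± 0.13), were at unadjusted p under 0.05. Factors of mRNA decay were higher for 20 of 28 and cell cycle genes for 19 of 29, both with a median of 0.08. The mRNA decay median was 0.05 without AD 2 and 0.11 without AD 3. The cell cycle median was 0.27 without AD-GE-RES 1 and -0.13 without AD-GE-RES 2. Other lists whose median changed sign with some animal left out were the B cell, cytotoxic, MHC class I, efflux, sterol, fatty acid, proteasome, adhesion and endosome lists. Apoptosis genes were lower for 14 of 21 (median -0.11) and Notch pathway genes for 10 of 14 (-0.06). The apoptosis median was -0.14 without AD 2 and -0.06 without AD 3. The Notch median was -0.12 without AD-GE-RES 1 and -0.03 without AD-GE-RES 4 or AD 4. Adhesion receptors and endosome and lysosome genes had medians of 0.00, with RUFY1, an endosomal Rab effector, at 0.30 ± 0.13. DNAJA4, a co-chaperone, was the 1 unfolded protein and heat shock gene at unadjusted p under 0.05, at 0.34 ± 0.16.

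**Figure D2:**
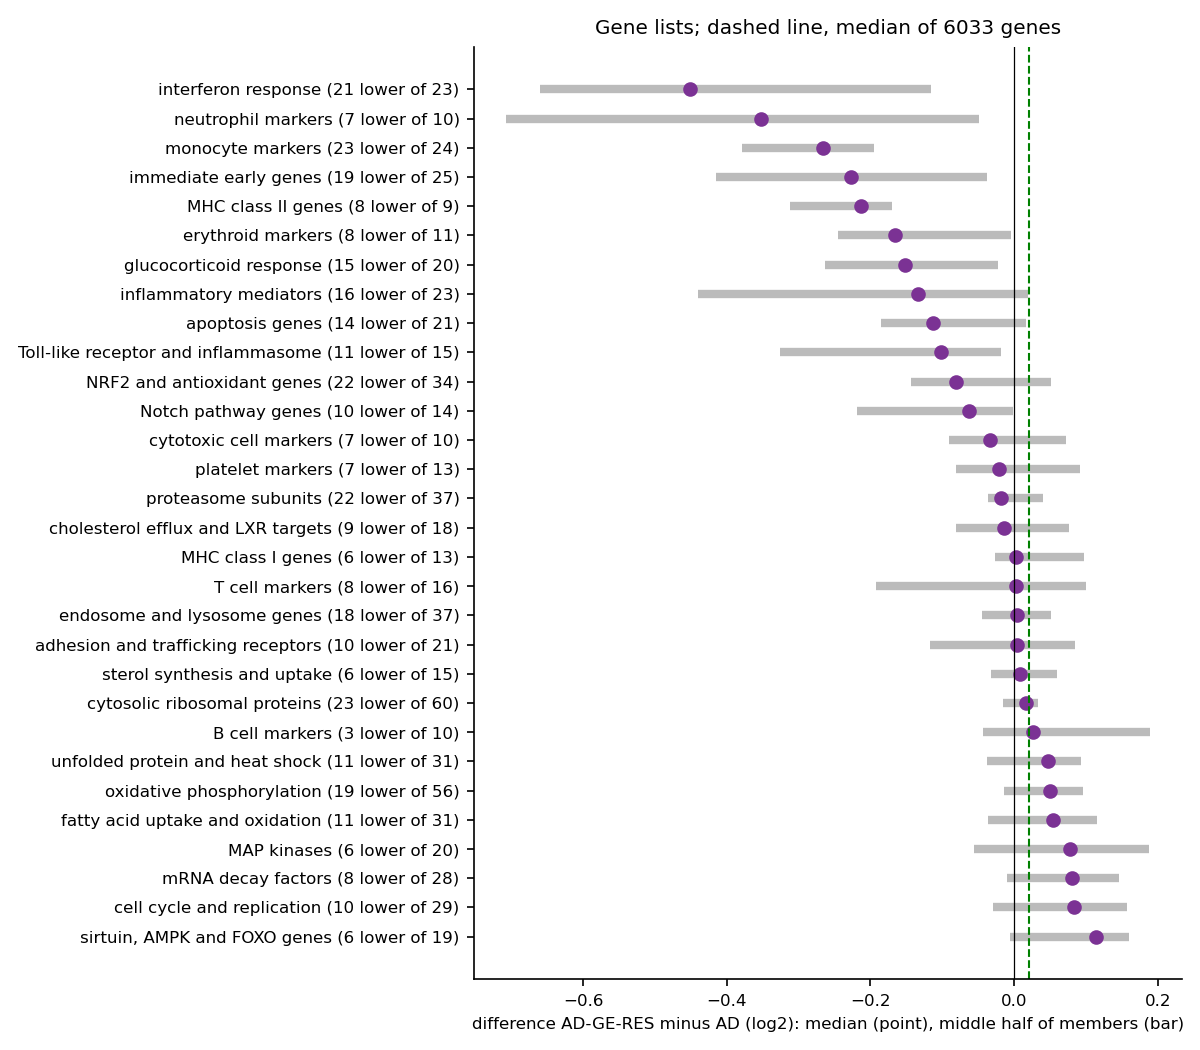
Median difference (log2, AD-GE-RES minus AD) of 30 gene lists as points, with bars from the lower to the upper quartile of the members; the dashed line is the median of 6033 genes. The interferon, neutrophil and monocyte lists have medians of -0.45, -0.35 and -0.27, and the sirtuin, AMPK and FOXO list of 0.11, with all 8 animals in; the order of the lists changes when single animals are left out.

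The design holds both sexes, and the difference between AD-GE-RES and AD was also tested for a difference between them. The sex difference, that is the difference in females minus that in males, passed adjusted p under 0.05 at 2 of 17999 probe sets (0.0111%) in a limma fit of all 24 arrays in 12 diet and sex groups. Within a sex, with 2 animals against 2, none was called in females (0%; 2051 at unadjusted p under 0.05, 11.4%) or in males (0%; 1020, 5.67%). At an unadjusted p under 0.05 the sex difference counted 2394 probe sets (13.3%), where 900 would be counted if none differed. Of these 2394, 2362 had opposite signs in the 2 sexes: 1322 were higher on AD-GE-RES in females and lower in males, and 1040 were the reverse. Selecting for a large sex difference by itself favours opposite signs, so this share is a description. Over all probe sets 59.9% had opposite signs, and the correlation of the 2 sexes' differences across probe sets was -0.39. These 17999 points share the same 8 arrays and so are not independent.

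Both called probe sets have no gene symbol in the platform annotation. The first, Ssc.27062.1.A1_at, read 7.22 and 7.06 in AD-GE-RES females, against 6.24 and 6.37 in AD females, and 5.93 and 6.10 in AD-GE-RES males, against 6.62 and 6.70 in AD males. Supplemented females thus lay above AD females and supplemented males below AD males, with differences of 0.83 in females and -0.64 in males (adjusted p = 0.00609 by limma for the sex difference of 1.48). The second, Ssc.4135.2.A1_at, differed by 0.90 in females and -0.99 in males (adjusted p = 0.0401 by limma). Both probe sets moved the same way as the 3'/5' ratio, with means of 3.74 in AD-GE-RES females against 2.16 in AD females, and of 1.65 in AD-GE-RES males against 2.22 in AD males. With that ratio as a covariate the sex differences were 1.48 and 1.71, with adjusted p of 0.0554 and 0.216 by limma, so none was called, and 1879 probe sets were at unadjusted p under 0.05. Leaving out AD-GE-RES 1, AD-GE-RES 3, AD 1 or AD 4 also left 0 calls, and leaving out AD-GE-RES 4, AD 2 or AD 3 left 1, 2 and 3. Leaving out AD-GE-RES 2, so that AD-GE-RES 1 was the only supplemented female, gave 888 calls. In that last fit the lone animal is assumed to vary like the other groups.

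Named genes at the top of the sex difference, chosen after their values were seen, had opposite signs in the sexes, as that choice favours. CAPZA2, a subunit of the actin capping protein, read 7.06 and 6.97 in AD-GE-RES females, against 5.94 and 6.44 in AD females, and 6.21 and 6.55 in AD-GE-RES males, against 7.05 and 6.93 in AD males. Its difference was 0.83 in females and -0.61 in males, but a second CAPZA2 probe set at a much higher level gave 0.21 in females and -0.18 in males. LAMP2, a lysosomal membrane protein, differed by 0.80 in females and -0.54 in males, and its 3 other probe sets by 0.10 to 0.30 in females and -0.72 to -0.33 in males. APPL2, an endosomal adaptor of the adiponectin receptor, ran the other way, with -0.73 in females and 0.72 in males; its second probe set gave -0.79 in females and 0.94 in males. EID1 and SOCS6 had 0.86 and 0.60 in females and -0.54 and -1.01 in males. Adjusted p for the sex difference lay between 0.0909 and 0.127 by limma for these 5 genes. FKBP5 differed by -0.87 in females and -0.56 in males.

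**Figure D3:**
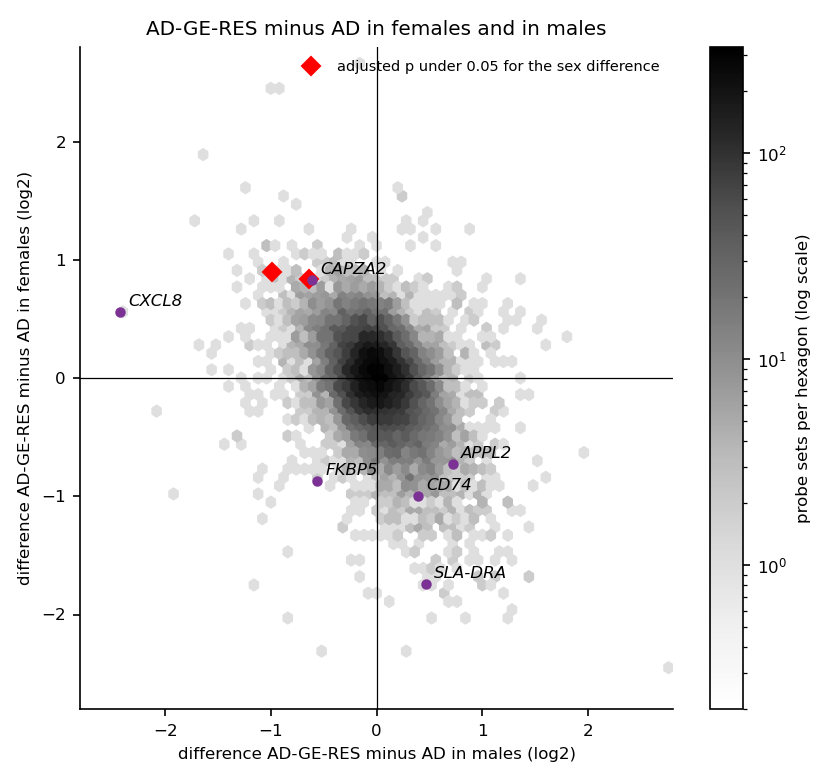
Difference AD-GE-RES minus AD (log2) of 17999 probe sets in males (horizontal) and females (vertical); darker hexagons hold more probe sets on a log scale. The cloud runs from upper left to lower right (Pearson r -0.39), the 2 called probe sets (red diamonds) lie at upper left, and FKBP5 lies below 0 in both sexes.

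Over all 6033 genes, 718 were at unadjusted p under 0.05 for the sex difference (11.9%), and the lists are read against that share. MHC class II genes had a median of -0.66 in females and 0.21 in males, and 4 of the 9 were at unadjusted p under 0.05 for the sex difference. The counts were 6 of 23 inflammatory mediators, 3 of 24 monocyte markers, 3 of 16 T cell markers, 2 of 23 interferon genes and 1 of 13 platelet markers. SLA-DRA, the alpha chain of the swine DR molecule, read 10.02 and 9.86 in AD-GE-RES females, against 11.16 and 12.21 in AD females, and 11.91 and 11.99 in AD-GE-RES males, against 12.18 and 10.79 in AD males. Supplemented females were the lowest of the 8 animals, with a difference of -1.74 in females and 0.47 in males. CD74, the invariant chain that escorts class II molecules, gave -1.0 in females and 0.39 in males. With the 3'/5' ratio as a covariate the list medians were -0.24 in females and 0.06 in males, and without AD 4 the males' median was -0.23.

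Monocyte markers had a median of -0.01 in females and -0.42 in males, and inflammatory mediators 0.02 in females and -0.51 in males. CXCL8 differed by 0.56 in females and -2.43 in males. Leaving out AD-GE-RES 1 turned the females' medians to -0.42 for both lists, and leaving out AD-GE-RES 2 turned them to 0.28 and 0.43, and the 2 supplemented females lay on opposite sides of both AD females in both list means. The interferon list had negative medians in both sexes, at -0.18 in females and -0.64 in males. In females its mean was 0.00 and -0.43 on AD-GE-RES, against -0.04 and 0.10 on AD. AD-GE-RES 1 thus lay between the 2 AD females, while both supplemented males lay below both AD males. T cell markers had medians of -0.13 in females and 0.42 in males, and platelet markers -0.53 in females and 0.70 in males. For the platelet list mean AD-GE-RES 1 (0.72) lay between the AD females (0.03 and 0.74), while AD-GE-RES 2 lay below both. AD-GE-RES 3 (-0.57) lay between the AD males (-0.502 and -1.08), while AD-GE-RES 4 (0.06) lay above both. The platelet list means of supplemented and AD animals thus overlapped within each sex. With the 3'/5' ratio as a covariate the T cell medians were 0.00 in females and 0.19 in males, and the platelet medians 0.08 in females and 0.45 in males. The part of RNA quality in these values was not tested beyond that fit.

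**Figure D4:**
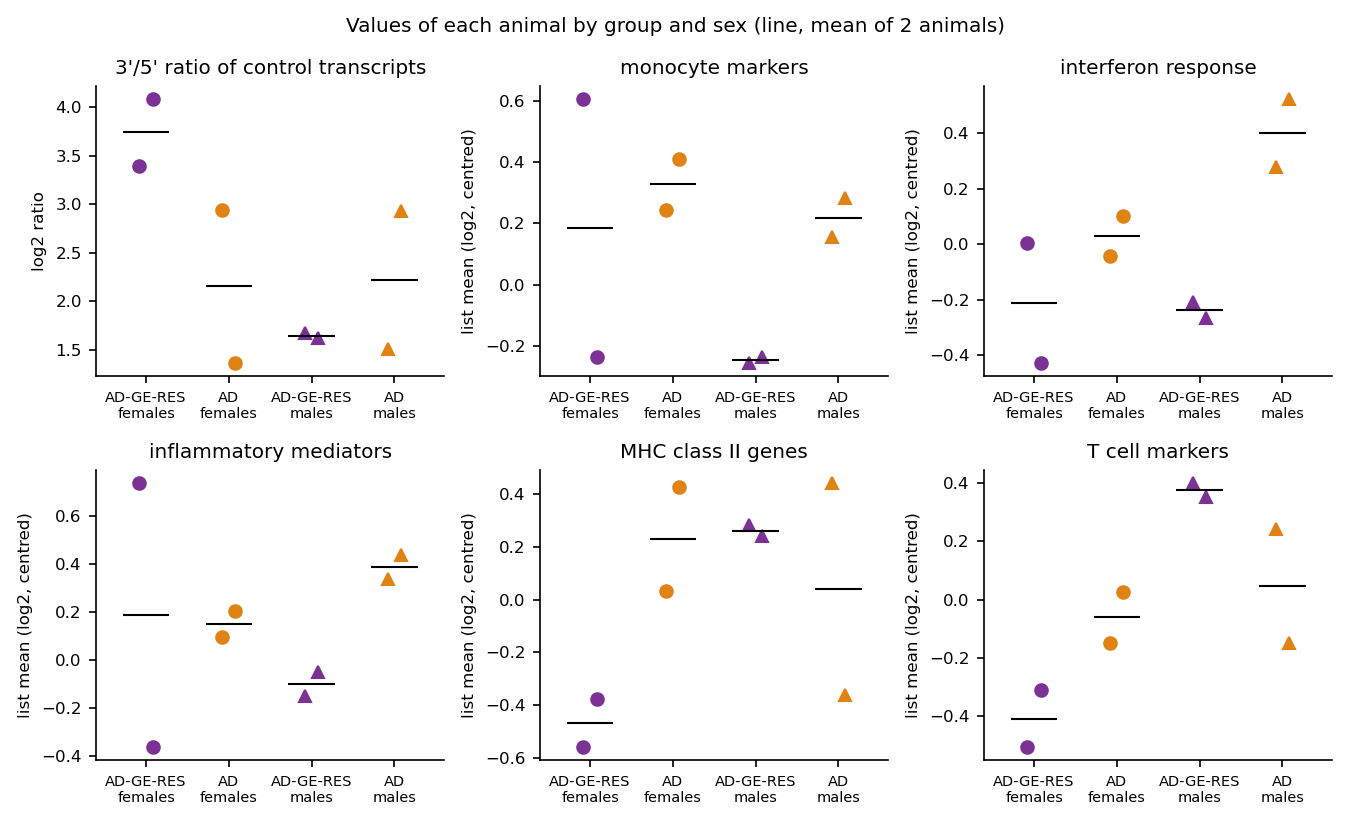
Values of each animal in 4 columns per panel, AD-GE-RES females, AD females, AD-GE-RES males and AD males: the log2 3'/5' ratio, and the mean of 5 gene lists relative to all 24 arrays (log2); lines are means of 2 animals. The 2 AD-GE-RES females have the highest ratios (3.40 and 4.08), they lie far apart for monocyte markers (0.61 and -0.23), and they are the lowest animals for MHC class II genes.

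The same extract given with standard chow, in other animals, gives a second reading that shares no array. Between CT-GE-RES and CT, 1224 probe sets were at unadjusted p under 0.05 (6.80%), and 495 without CT 4, the array with the lowest correlation to the others of the series. The correlation across probe sets between the difference on the atherogenic diet and that on chow was 0.02, and 0.03 without CT 4. No probe set passed adjusted p under 0.05 for the difference between the diets (0%), and 561 were at unadjusted p under 0.05 (3.12%).

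Among leading genes, ABCB1 was higher on both diets (0.56 ± 0.21 on AD-GE-RES against AD, 0.73 ± 0.21 on CT-GE-RES against CT). CEBPD was lower on both (-0.37 and -0.33), as were ACVR1B (-0.62 and -0.56) and CHI3L1 (-1.03 and -0.95). CHI3L1 belongs to the neutrophil list, whose mean was 1.56 in CT 4 against -0.08 to 0.09 in CT 1 to 3. At its dimmer probe set FKBP5 differed by -0.72 on the atherogenic diet and by 0.22 on chow. The difference between diets was -0.94 ± 0.26 there (unadjusted p = 0.0014, adjusted p = 0.9999 by limma). The brighter FKBP5 probe set was lower on both diets, at -0.75 and -0.12. TBC1D10A (-0.38 and 0.16), CCL8 (-0.89 and 1.16), TCEA1 (0.65 and -0.36) and ABCA1 (0.64 and -0.45) had opposite signs at the probe sets given. Interferon genes were lower for 17 of 23 on chow, with a median of -0.31 (-0.18 without CT 4), and monocyte markers for 19 of 24, with a median of -0.26 (-0.29 without CT 4). Neutrophil markers were lower for 9 of 10 on chow, with a median of -0.67 (-0.23 without CT 4), and erythroid markers for 10 of 11, with a median of -0.70 (-0.30 without CT 4). The part of such cells in the chow values was not tested. T cell markers were higher for 15 of 16 on chow (median 0.42, and 0.28 without CT 4), against 8 of 16 on the atherogenic diet. MHC class II genes had a median of 0.44 on chow, which was 0.07 without CT 4.

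**Figure D5:**
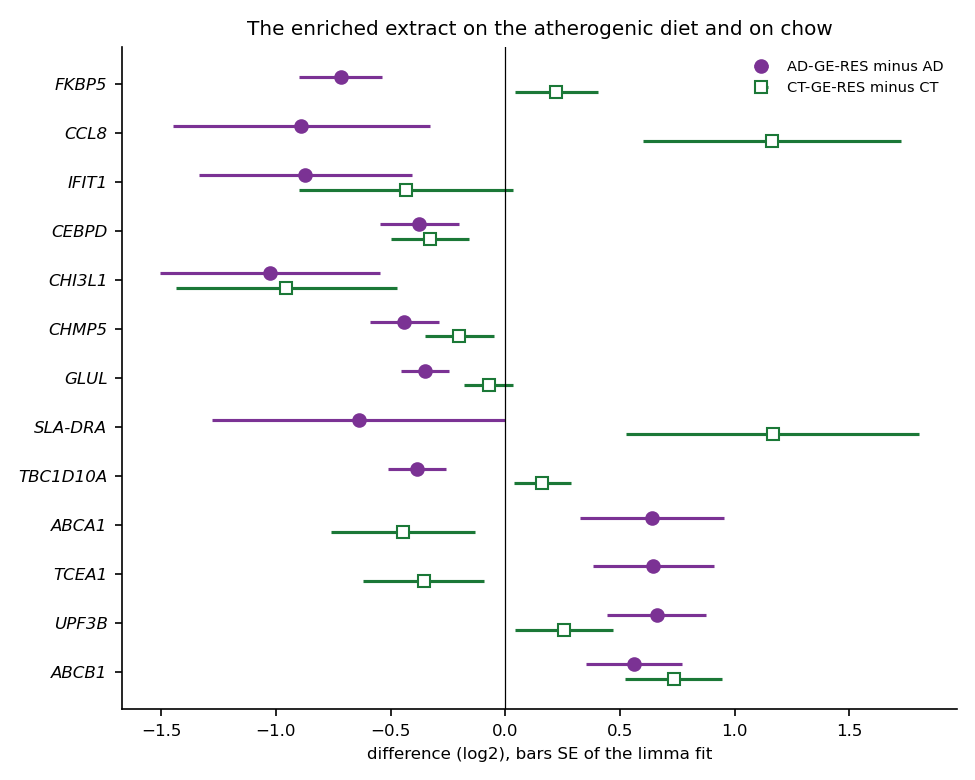
Difference (log2) of 13 genes for AD-GE-RES minus AD (filled circles) and CT-GE-RES minus CT (open squares), with SE of the limma fit as bars, 4 animals in each group. ABCB1, CEBPD and CHI3L1 lie on the same side of 0 on both diets, while FKBP5, CCL8, TBC1D10A, ABCA1 and TCEA1 lie on opposite sides. FKBP5 is shown at its dimmer probe set, and its brighter one was lower on both diets (-0.75 and -0.12).

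The grape extract without added resveratrol (AD-GE) and resveratrol alone (AD-RES) were each given with the atherogenic diet too, and their comparisons share the AD animals with the one described. FKBP5 differed by -0.72 on AD-GE-RES, -0.75 on AD-GE and -0.67 on AD-RES, each against AD. ABCB1 gave 0.56, -0.12 and 0.66 in that order, UPF3B 0.66, 0.46 and 0.27, CHMP5 -0.44, -0.66 and 0.00, and ABCA1 0.64, 1.01 and 0.23. The interferon list had medians of -0.45, -0.85 and -0.17, and the monocyte list -0.27, -0.49 and -0.49.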

How the data were processed

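RNA of density-gradient mononuclear cells was biotin-labelled and hybridised to Affymetrix porcine arrays, 1 per animal. The deposited values are intensity per probe set on a linear scale; RMA and GCOS are the tools per the submitters' processing notes, with roles and versions not given in the sources used here. Intensities were taken to log2. Of 24123 probe sets, 124 controls were set aside and the lowest 25% by mean were left out (mean log2 under 3.57), leaving 17999; 8540 had 1 platform symbol, covering 6033 genes. Limma 3.58.1 in R 4.3.3 fitted the 6 diet means and sex to all 24 arrays (17 residual degrees of freedom), or 12 diet and sex groups (12). P-values are two-sided and Benjamini-Hochberg adjusted over all probe sets tested. Each sets a difference against the spread between animals of the same group, pooled over the 24 arrays and moderated across probe sets by limma. The number of arrays limits the precision. Array medians ran from 38.6 to 41.2.

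Named genes were, in each direction, the 10 with the smallest p and the 6 with the largest difference at unadjusted p under 0.05, up to 3 members with the smallest p of each list, any probe set called by sex or between diets, and a panel of 12 genes, of which those not measured with 1 symbol are not analysed here. Other list members named for their role or for groups that do not overlap were chosen after their values were seen. Members and lists were chosen with earlier results of these data known. Alternatives covered filter, scaling, variance prior, array weights, sex term, arrays fitted, the 3'/5' ratio and each of the 8 arrays left out; those by sex for lists, and that without CT 4, were chosen after seeing the data. Sequences and genome positions were not used here.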

Additional observations from a re-analysis of the deposited data

Results flagged for a closer look

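The sex difference of AD-GE-RES minus AD was 1.48 for probe set Ssc.27062.1.A1_at and 1.89 for Ssc.4135.2.A1_at, both past adjusted p under 0.05 by limma, with opposite signs in females and males.

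Among 234 groups of 4 values, 15 had 1 animal apart from the other 3 by more than 0.829 of the group's range; chance gives about 1 in 20 such groups, or 11.7. AD-GE-RES 1 was the animal apart for the monocyte list mean (0.61), the MHC class I list mean (-0.33), the adhesion receptor list mean (0.15), GATA3 (8.70), SOD2 (11.39) and NDUFA2 (10.69). AD-GE-RES 2 was apart for the sterol synthesis list mean (0.22) and DDX58 (5.13). AD-GE-RES 4 was apart for the sirtuin, AMPK and FOXO list mean (-0.027), ABCB1 (6.78) and MLLT3 (7.36). AD 2 was apart for that sirtuin list mean (-0.13), CHMP5 (8.82) and DNAJA4 (5.92), and AD 4 for PTGS2 (4.63).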

How the results depend on the processing

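Between AD-GE-RES and AD no probe set passed adjusted p under 0.05 in limma under any of the alternatives, in which 1 choice was changed at a time. The number at unadjusted p under 0.05 was 207 higher and 225 lower. It changed to 114 higher with only the 8 arrays, 348 lower without a filter, 93 lower with the lower 50% left out, and 145 lower with median centring. Array weights gave 383 higher and 453 lower. Leaving out 1 array gave 91 (without AD 2) to 727 (without AD-GE-RES 1) higher, and 156 to 581 lower for the same 2 arrays. Median centring moved the share higher among them to 67.6%, against 47.9%. In females alone 2 were called with the lower 50% left out, and 0 to 396 with 1 array left out, the most without AD-GE-RES 2. The sex difference, with 2 called, had 1 after repeated quantile normalization, 1 with array weights and 0 with the 3'/5' ratio as a covariate. Leaving out 1 array gave 0 to 888, the most without AD-GE-RES 2. Its count at unadjusted p under 0.05, 2394, was 1569 with array weights and 1682 to 3678 with 1 array left out. The causes were not tested.

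Of 87 named probe sets, 5 changed sign somewhere. CD74 was 0.023 with the 3'/5' ratio as a covariate. With 1 array left out VWF ran from -0.23 to 0.67, NFKBIA from -0.34 to 0.13, TNF from -0.48 to 0.11 and CD163 from -0.69 to 0.018. No paired analysis was possible because every array is a different animal and the labels share no replicate numbers across groups.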
